A study of Homo sapiens with 9 samples.

Results

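DNA replication and mitosis genes were examined as a set of 48 among the 60649 genes counted by RNA sequencing in OVCAR5, an established human ovarian cancer cell line. The genes were chosen by symbol, from general knowledge of the cell cycle, with earlier results of these data known. All 48 were found in the GENCODE v44 annotation (GRCh38) and passed the filter on low counts. They comprise 19 genes of replication (G1/S), 17 of mitosis (G2/M), 7 cyclin and CDK1 genes, 3 transcription factors and 2 CDK inhibitors. The question was how the replication and mitotic genes stood in the libraries labelled SM2 and SM4, described as METTL3 knockdown, against those labelled NC, given as the control. Each label had 3 libraries, 9 in all, from stable lines made by lentiviral transduction and selected with puromycin. METTL3 is the methyltransferase that writes N6-methyladenosine (m6A) on messenger RNA. NC is given as parental cells in the labels and as a control hairpin in the methods of the study, and the hairpin behind SM2 or SM4 is not named in the labels. The source field of the SM4 libraries carries other OVCAR numbers, while their cell line field reads OVCAR5. No source states that the libraries of a label came from separate cultures, so the p-values measure the spread between these libraries, which may be technical.

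Before DNA is copied, the origin recognition complex, CDC6 and CDT1 load the MCM helicase onto chromatin, a step called licensing, and CDC45 and GINS then join MCM to form the active helicase. D-type cyclins with CDK4 or CDK6, and E-type cyclins with CDK2, release E2F transcription factors from the RB protein, and E2F drives replication genes in G1 and S phase. The cyclin B and CDK1 kinase starts mitosis, the spindle checkpoint delays anaphase until chromosomes are attached, and the anaphase-promoting complex then degrades cyclin B. Many mitotic genes are controlled through CHR elements and CCAAT boxes, where the MuvB-containing DREAM and MYBL2 complexes and NF-Y bind. CDKN1A (p21) and CDKN1B (p27) bind and inhibit cyclin and CDK pairs.

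The promoters of the 2 main classes carried different short motifs. RefSeq promoter windows (GRCh38.p14), from 250 bases before to 50 bases after each transcript start, were given for 37 of the 48 genes. No window was given for MCM4, MCM5, GINS4, FOXM1, CCND1, CCNE2, AURKA, TTK, TPX2, BIRC5 and UBE2C. Both strands were searched. A CHR was either TTTGAA, the common form, or the variant with the letters TTCGAA. The CCAAT box was read as its own name, and an E2F motif was TTTCCCGC, TTTCGCGC, TTTGCCGC or TTTGGCGC. An E2F motif was found in 12 of 16 replication windows (75%) and in 0 of 12 mitosis windows, against 3.31% of all 35116 windows in the table. A CHR was found in 9 of 12 mitosis windows (75%) and in 2 of 16 replication windows (12.5%), against 16.4% of all windows. The CCAAT box was common to both, with 11 of 16 replication windows (68.8%) and 10 of 12 mitosis windows (83.3%), against 34.6% of all windows. A match is a run of letters and does not show binding.

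**Figure D1:**
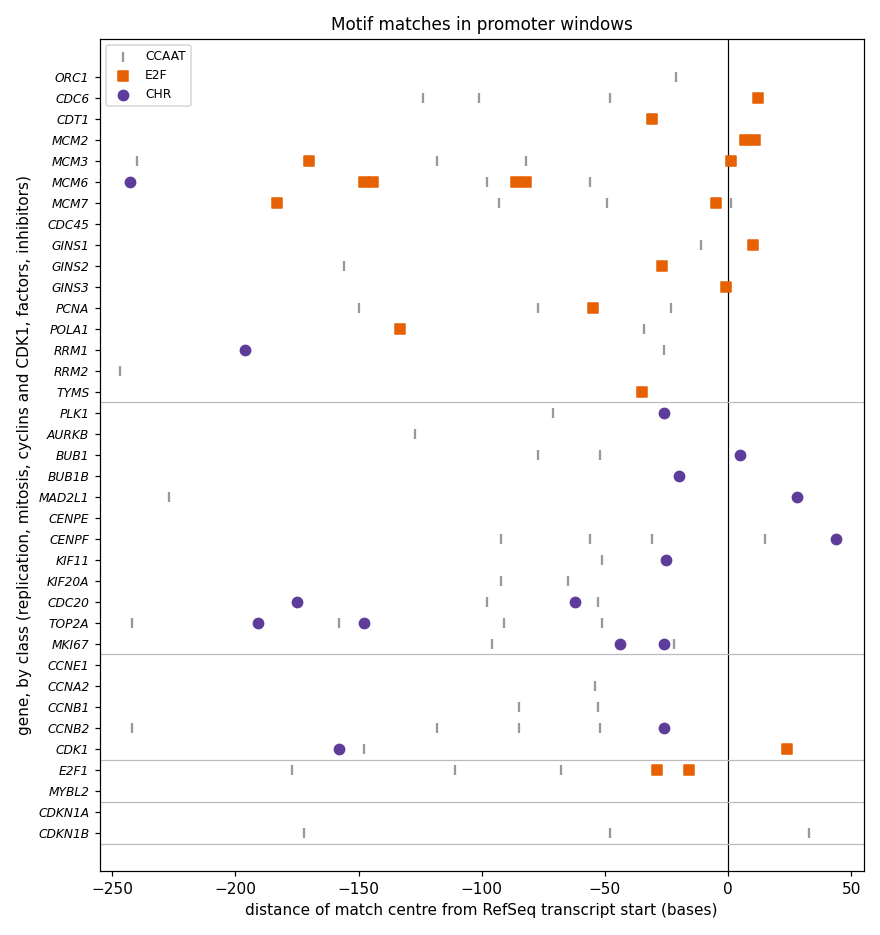
Position of each motif match in the promoter windows of the 37 genes that had one. The x axis is the distance in bases from the RefSeq transcript start to the centre of the match, and each row is a gene, grouped by class. Orange squares (E2F) lie in the replication rows, in E2F1 and in CDK1, and purple circles (CHR) lie mostly in the mitosis rows.

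The 250 bases before the transcript start are printed for 3 genes with E2F motifs that were higher in both SM2 and SM4 than in NC (MCM6, PCNA and E2F1), and for 3 mitotic genes with a CHR, of which PLK1 was higher and BUB1B and CDC20 were lower in both. Each runs 5′ to 3′ on the strand of its gene, and capitals mark every CHR, CCAAT and E2F match on either strand. MCM6 lies at chr2:135876444-135876693 (minus strand) and holds 4 E2F matches, in pairs that share bases on opposite strands. PCNA lies at chr20:5126623-5126872 (minus), E2F1 at chr20:33686386-33686635 (minus), PLK1 at chr16:23678639-23678888 (plus), BUB1B at chr15:40160819-40161068 (plus) and CDC20 at chr1:43358731-43358980 (plus). In GENCODE the PLK1 window also lies within an exon of a retained-intron PLK1 transcript, and the last 46 bases of the BUB1B window lie in an exon of a BUB1B transcript with no defined coding sequence.
MCM6: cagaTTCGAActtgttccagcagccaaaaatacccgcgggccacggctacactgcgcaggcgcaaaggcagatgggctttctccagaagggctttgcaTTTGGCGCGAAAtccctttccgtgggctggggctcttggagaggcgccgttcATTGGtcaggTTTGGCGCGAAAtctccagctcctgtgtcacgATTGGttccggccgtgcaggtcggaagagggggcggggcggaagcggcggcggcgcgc
PCNA: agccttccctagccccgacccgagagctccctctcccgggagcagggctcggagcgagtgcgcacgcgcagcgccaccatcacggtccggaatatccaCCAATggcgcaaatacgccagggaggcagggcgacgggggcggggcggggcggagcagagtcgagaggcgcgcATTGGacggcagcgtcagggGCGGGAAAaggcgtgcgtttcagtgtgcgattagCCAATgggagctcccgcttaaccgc
E2F1: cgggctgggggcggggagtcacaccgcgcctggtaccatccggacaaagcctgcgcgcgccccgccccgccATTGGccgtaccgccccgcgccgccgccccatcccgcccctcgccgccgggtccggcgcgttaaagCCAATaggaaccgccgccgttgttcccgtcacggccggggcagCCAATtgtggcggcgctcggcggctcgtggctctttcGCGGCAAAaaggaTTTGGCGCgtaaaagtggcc
PLK1: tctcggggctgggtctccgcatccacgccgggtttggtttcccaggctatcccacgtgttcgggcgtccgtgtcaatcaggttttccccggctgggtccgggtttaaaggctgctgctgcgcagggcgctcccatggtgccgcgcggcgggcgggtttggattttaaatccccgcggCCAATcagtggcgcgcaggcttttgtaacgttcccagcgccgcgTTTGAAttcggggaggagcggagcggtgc
BUB1B: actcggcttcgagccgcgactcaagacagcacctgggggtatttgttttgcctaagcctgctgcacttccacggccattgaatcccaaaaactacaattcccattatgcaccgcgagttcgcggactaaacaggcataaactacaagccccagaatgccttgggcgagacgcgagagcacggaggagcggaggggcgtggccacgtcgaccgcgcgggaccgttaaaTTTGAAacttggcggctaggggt
CDC20: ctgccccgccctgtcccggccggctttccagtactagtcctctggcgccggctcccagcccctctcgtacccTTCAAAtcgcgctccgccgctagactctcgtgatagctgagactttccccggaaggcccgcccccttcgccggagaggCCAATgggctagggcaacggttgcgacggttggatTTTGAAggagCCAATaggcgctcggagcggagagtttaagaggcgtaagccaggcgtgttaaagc
The CHR of BUB1B is centred 20 bases before the start and that of PLK1 26 bases before it.

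METTL3 did not fall in the libraries described as its knockdown. It stood at 36.2, 34.4 and 36.6 CPM (counts scaled to the library total and TMM factor) in NC, at 37.1, 39.8 and 40.01 CPM in SM2, and at 60.6, 57.5 and 62.4 CPM in SM4. The log2 fold change against NC was 0.12 ± 0.055 (SE) in SM2 (adjusted p = 0.12), and METTL3 rose in SM4 by 0.75 (adjusted p = 2.21e-09). It was also higher in SM4 than in SM2, by 0.63 (adjusted p = 7.46e-08). METTL3 was thus lowest in the libraries given as the control and highest in a set given as knockdown. The study's supplement lists METTL3 for shMETTL3-1 and shMETTL3-2 against the control hairpin. Those values are SM4 against NC and SM4 against SM2 with the sign turned. PECAM1, at 1.32 and 0.73 in these comparisons, matches nearly as closely. By these genes SM4 stands where the study's control does, NC where shMETTL3-1 does and SM2 where shMETTL3-2 does. An exchange of labels or columns is possible and was not settled from these counts alone. Groups are therefore called by their labels, and each direction below is that of libraries labelled SM2 or SM4 against libraries labelled NC, not a direction of knockdown against control. If SM4 were the control, NC against the control would be each value of SM4 against NC with its sign turned, SM2 against the control would be each value of SM4 against SM2 with its sign turned, and SM2 against NC would hold no control. Totals ran from 44103272 to 63693728 counts per library. The lowest count of any of the 48 genes in any library was 405, and their means ranged from 10.6 to 1091 CPM. SM2 replicate 3 stood apart: a chi-square test of counts gave 16.1 and 13.4 per degree of freedom for its pairs with the other SM2 libraries, against 4.16 to 6.01 for the other 7 replicate pairs. Epithelial markers (EPCAM, KRT8, KRT18, KRT19, CDH1 and MUC1) were abundant, summing to 10070 to 10430 CPM in NC, 11490 to 11970 CPM in SM2 and 11020 to 11700 CPM in SM4. The 6 fibroblast markers summed to 21.3 to 25.01 CPM in NC, 22.6 to 27.3 CPM in SM2 and 22.02 to 24.8 CPM in SM4, nearly all from COL1A1. The 4 endothelial markers summed to 5.48 to 5.98 CPM in NC, 7.87 to 8.95 CPM in SM2 and 13.4 to 15.6 CPM in SM4, nearly all from PECAM1, with VWF and CDH5 near 0. The 5 leukocyte markers summed to 5.63 to 6.66 CPM in NC, 8.22 to 9.43 CPM in SM2 and 10.1 to 10.9 CPM in SM4, nearly all from CD14, with PTPRC and CD3E at or near 0 in every library. The part of these shifts in the results was not tested.

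Of the 17 mitosis genes 9 fell and 1 rose in SM2 against NC, while in SM4 against NC 5 fell, 1 rose and 11 did not pass the test. If SM4 were the control, the first comparison would hold no control and the second would be control against knockdown. The 19 replication genes were mixed in both, and no gene of the set moved by more than 25.7%. A gene is called here where its edgeR p-value, adjusted over all 19674 genes tested, was below 0.05. In SM2 against NC 22 of the 48 genes (45.8%) were called, 8 higher and 14 lower, against 22.3% of all genes tested (12% higher and 10.3% lower). In SM4 against NC 16 of 48 (33.3%) were called, 9 higher and 7 lower, against 21.2% of all genes (11% higher and 10.2% lower). The 48 genes are well expressed, and among the 9841 genes with a mean of at least 10 CPM, a limit chosen after the data were seen, 32.4% were called in SM2 (15.1% higher and 17.3% lower) and 31.1% in SM4 (14.1% higher and 17% lower). Read against those genes, the share called in SM4 was near the background, and the share called lower in SM2 (29.2%) was above it. The 3 libraries of SM2 lay above all of NC for 11 genes and below all of NC for 15, against 18% and 17.2% of all genes, and those of SM4 above for 12 and below for 18, against 19.1% and 19.3%. Both comparisons share the NC libraries, so they are not independent. The genes called higher in both were 5 (MCM6, PCNA, E2F1, PLK1 and CDKN1B), against 6.71% of all genes, and those called lower in both were 4 (CCNB1, AURKA, BUB1B and CDC20), against 5.03%. No gene of the set was called in opposite directions, against 0.295% and 0.152% of all genes. Without SM2 replicate 3 the count in SM2 was again 22, with 10 higher and 12 lower, against 22.9% of all genes called. It fell to 10 without NC replicate 1, to 9 without NC replicate 2 and to 12 without SM2 replicate 2. The share of all genes called fell as well, to 16.2%, 15.9% and 17.4%.

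**Figure D2:**
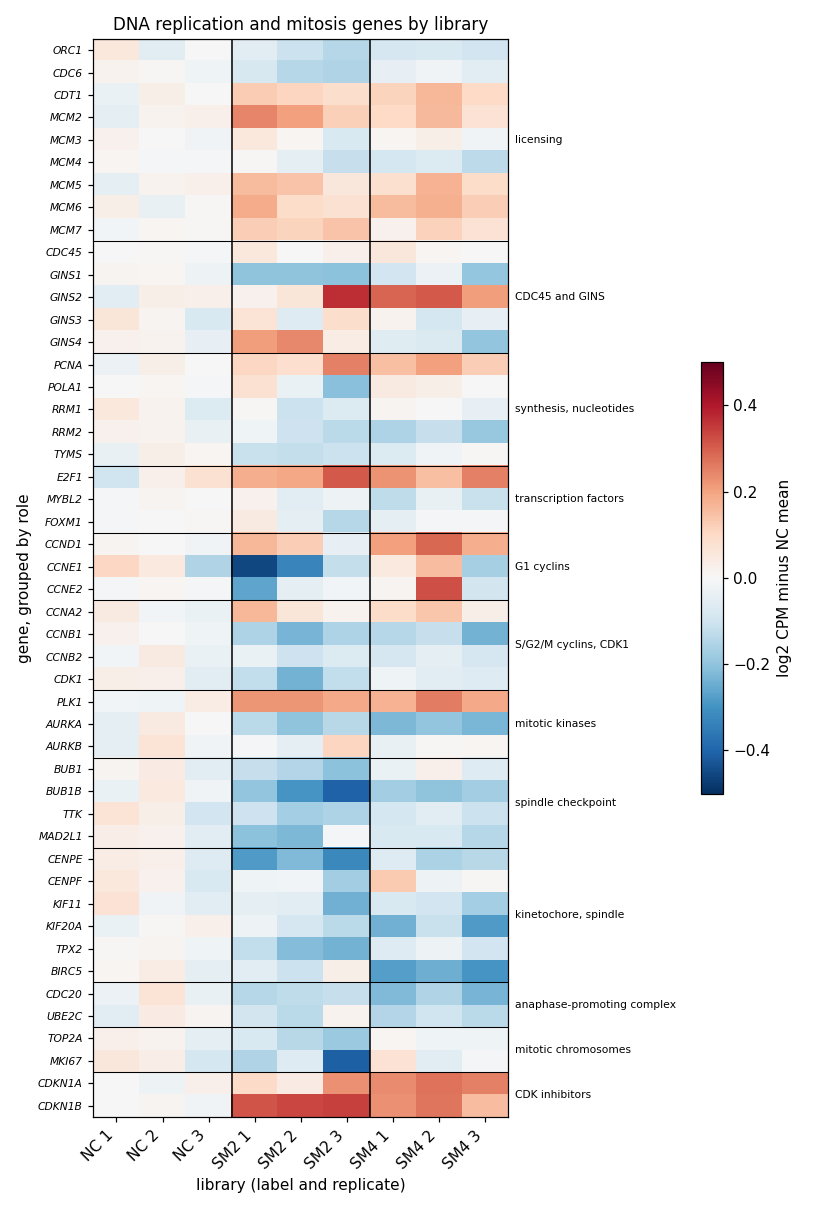
Log2 CPM of each of the 48 genes in each of the 9 libraries, minus the mean of the 3 NC libraries (colour scale from blue, lower, to red, higher). Rows are genes grouped by role and columns are libraries. CDKN1B, E2F1 and PLK1 are red in all 6 SM2 and SM4 libraries, and AURKA, BUB1B, CCNB1 and CDC20 are blue in all 6.

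The 17 mitosis genes had a median log2 fold change of -0.13 in SM2, where 15 of 17 were negative and 10 were called, 1 higher and 9 lower. In SM4 the median was -0.099, with 14 of 17 negative and 6 called, 1 higher and 5 lower. The 19 replication genes had medians of 0.027 in SM2 (5 called higher and 2 lower) and 0.0066 in SM4 (4 higher and 1 lower). Over all genes tested the medians were -0.0037 and -0.0011, with 9969 of 19674 genes negative in SM2 and 9872 in SM4. The shares called were 58.8% and 35.3% of mitosis genes and 36.8% and 26.3% of replication genes, in SM2 and SM4. For all genes they were 22.3% and 21.2%, and for genes with a mean of at least 10 CPM 32.4% and 31.1%. Read against the latter, the mitosis share in SM2 was above the background and the other 3 were near it. Library by library, the median of the mitosis genes, as log2 CPM minus the NC mean, was 0.0082, 0.030 and -0.044 in NC, -0.10, -0.13 and -0.15 in SM2, and -0.074, -0.077 and -0.13 in SM4. All 6 SM2 and SM4 libraries lay below the 3 NC libraries. The corresponding medians of the replication genes were 0.0087, 0.015 and -0.0045 in NC, 0.053, 0.00046 and 0.026 in SM2, and 0.018, 0.0081 and -0.00099 in SM4. These overlapped between labels. The replication median in SM2 was -0.0054 without NC replicate 3. Together the 48 genes took 1.03% to 1.08% of the counts of a library. In bulk RNA, fewer cells in a phase of the cycle and less RNA per cell cannot be told apart.

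**Figure D3:**
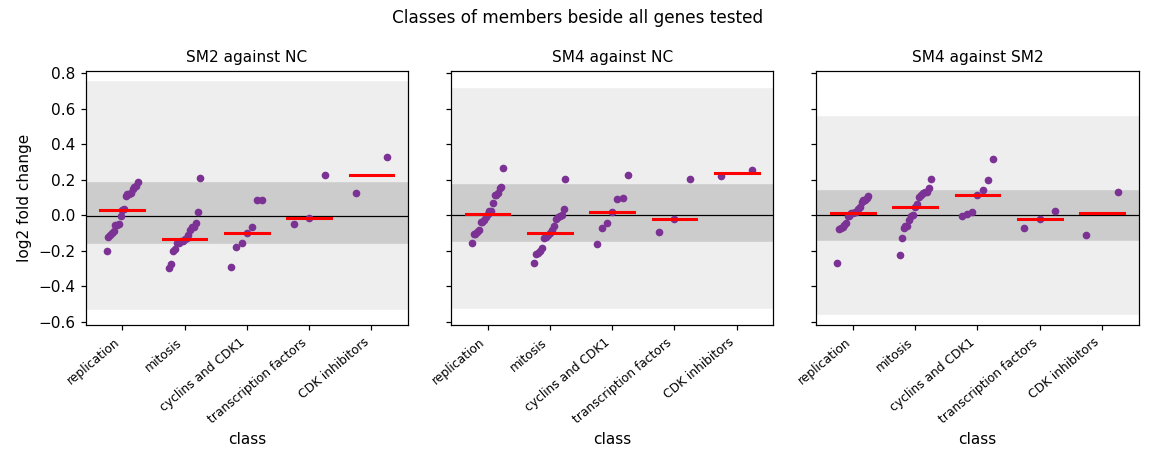
Log2 fold change of each gene by class in the 3 comparisons. Points are genes, red bars are class medians, the dark grey band spans the 25th to 75th percentile and the light grey band the 5th to 95th percentile of all 19674 genes tested. The mitosis medians lie below 0 in both comparisons with NC (-0.13 and -0.099) and the replication medians lie near 0.

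Among the 9 licensing genes, several MCM helicase subunits were higher and the loader CDC6 was lower in SM2. MCM6 (ENSG00000076003, chr2:135839626-135876443), an MCM helicase subunit, stood at 238, 228 and 235 CPM in NC, at 266, 249 and 246 CPM in SM2, and at 261, 264 and 255 CPM in SM4. Every SM2 and SM4 library was above every NC library. The log2 fold change was 0.12 ± 0.042 (SE) in SM2 (adjusted p = 0.0493) and 0.15 ± 0.042 in SM4 (adjusted p = 0.0118). The SM2 call was lost when any library other than SM2 replicate 3 was left out (log2 fold change 0.083 to 0.13), and the SM4 call without NC replicate 2, SM4 replicate 1 or SM4 replicate 2 (0.13 to 0.15). Here and for the genes below, the losses given are those with a library left out. Losses under other settings are given at the end. MCM2 and MCM7, subunits of the same helicase, rose in SM2 by 0.19 (adjusted p = 0.00396) and 0.12 (adjusted p = 0.0258), and had 0.11 and 0.070 in SM4, which were not called. The MCM7 call was lost without any NC library or SM2 replicate 2 (0.12 to 0.13). Exons of MCM2 share 23.6% of their bases with an antisense lncRNA at 0.426 CPM, and those of MCM7 share 7.9% with AP4M1 on the other strand. CDC6, the ATPase that loads MCM, fell in SM2 by 0.12 on the log2 scale (adjusted p = 0.0332), a call lost without any one of NC replicates 1 to 3, SM2 replicate 2, SM2 replicate 3 or SM4 replicate 1 (-0.13 to -0.11). CDT1, its partner in loading, rose in SM4 by 0.13 (adjusted p = 0.0372), a call that stood only when SM2 replicate 1 or SM2 replicate 3 was the library left out (0.10 to 0.14 in the others). The uncalled licensing genes, among them ORC1, MCM3, MCM4 and MCM5, lay between -0.10 and 0.12 in SM2 and between -0.095 and 0.12 in SM4.

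The GINS subunits, which sit in 1 complex, did not move together. GINS2 (ENSG00000131153, chr16:85676198-85690073) stood at 52.4, 55.6 and 55.4 CPM in NC, at 55.3, 56.7 and 70.3 CPM in SM2, and at 66.5, 67.4 and 62.9 CPM in SM4. All 3 SM4 libraries were above NC, while in SM2 replicate 3 alone was far above and replicate 1 lay within NC. GINS2 rose in SM4 by 0.27 ± 0.069 (SE) on the log2 scale (adjusted p = 0.00756), and its 0.16 ± 0.070 in SM2 was not called (adjusted p = 0.114). GINS4 (ENSG00000147536, chr8:41529218-41545030) stood at 58.6, 58.3 and 56.1 CPM in NC, at 66.6, 68.2 and 59.1 CPM in SM2, and at 55.3, 54.8 and 50.4 CPM in SM4. It was above NC in every SM2 library and below NC in every SM4 library. The rise in SM2 was 0.16 ± 0.057 (adjusted p = 0.0446), and the value in SM4, -0.11 ± 0.057, was not called (adjusted p = 0.211). The GINS4 exons share 21% of their bases with an antisense lncRNA at 0.117 CPM. The SM2 call on GINS4 was lost without any NC library, SM2 replicate 1, SM2 replicate 2, SM4 replicate 1 or SM4 replicate 2 (0.12 to 0.17). GINS1 fell in SM2 by 0.20 (adjusted p = 0.00415) and had -0.10 in SM4. CDC45, the helicase cofactor, and GINS3 were called in neither and lay between -0.037 and 0.033.

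PCNA, the sliding clamp of the replicative polymerases, was higher in both labels, and RRM2, the regulated subunit of ribonucleotide reductase, was lower in SM4. PCNA (ENSG00000132646, chr20:5114953-5126626) stood at 313, 326 and 320 CPM in NC, at 343, 339 and 380 CPM in SM2, and at 355, 369 and 348 CPM in SM4. No SM2 or SM4 library overlapped NC, and SM2 replicate 3 was the highest of all. The log2 fold change was 0.15 ± 0.046 (SE) in SM2 (adjusted p = 0.0252) and 0.16 ± 0.046 in SM4 (adjusted p = 0.0159). The SM2 call was lost without any NC library or SM2 replicate 3 (0.096 to 0.16), and the SM4 call without NC replicate 1, NC replicate 3 or SM4 replicate 2 (0.14 to 0.16). RRM2 fell in SM4 by 0.15 (adjusted p = 0.0107) and had -0.087 in SM2, and the SM4 call was lost without NC replicate 1, NC replicate 2, SM4 replicate 1 or SM4 replicate 3 (-0.15 to -0.14). POLA1 (the DNA polymerase alpha catalytic subunit), RRM1 (the large reductase subunit) and TYMS (thymidylate synthase) were called in neither and lay between -0.11 and 0.024. TYMS shares 39.9% of its exon bases with ENOSF1 on the other strand. ENOSF1 stood at 157 CPM against 121 CPM for TYMS, with -0.183 in SM2 (adjusted p = 0.0205) and 0.061 in SM4 (adjusted p = 0.505). Whether ENOSF1 reads entered the TYMS counts was not tested.

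E2F1, an activator of replication genes, rose in both labels, and the other transcription factors were not called. E2F1 (ENSG00000101412, chr20:33675477-33686385) stood at 101, 110 and 114 CPM in NC, at 123, 123 and 134 CPM in SM2, and at 126, 120 and 129 CPM in SM4. All 6 SM2 and SM4 libraries were above the highest NC library. The log2 fold change was 0.23 ± 0.052 (SE) in SM2 (adjusted p = 0.00278) and 0.21 ± 0.051 in SM4 (adjusted p = 0.00582), and the SM4 call was lost without NC replicate 1, the lowest library, at 0.16. MYBL2 and FOXM1, factors that drive mitotic genes, lay between -0.093 and -0.019 in both comparisons.

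Of the G1 cyclins, CCND1 rose in SM4 and CCNE1 fell in SM2. CCND1 (cyclin D1, ENSG00000110092, chr11:69641156-69654474) stood at 716, 711 and 701 CPM in NC, at 796, 773 and 689 CPM in SM2, and at 818, 866 and 805 CPM in SM4. Every SM4 library was above NC, while SM2 replicate 3 was below NC and the other SM2 libraries above it. The log2 fold change was 0.23 ± 0.048 (SE) in SM4 (adjusted p = 0.00147) and 0.085 ± 0.048 in SM2 (adjusted p = 0.229). Without SM2 replicate 3 the value in SM2 was 0.15 and passed the test. CCND1 shares 10.4% of its exon bases with LTO1 on the other strand. CCNE1 (cyclin E1, ENSG00000105173, chr19:29811991-29824312) was among the lowest genes of the set, at 13.2, 12.7 and 11.04 CPM in NC, at 8.93, 9.76 and 11.3 CPM in SM2, and at 12.7, 13.7 and 10.9 CPM in SM4. SM2 replicate 3 overlapped NC. SM4 replicate 1 lay within the span of NC, replicate 2 above it and replicate 3 just below it. CCNE1 fell in SM2 by 0.29 ± 0.10 on the log2 scale (adjusted p = 0.0462) and had 0.019 ± 0.10 in SM4 (adjusted p = 0.926). The SM2 call was lost without NC replicate 1, NC replicate 2, SM2 replicate 1, SM2 replicate 2 or SM4 replicate 1 (-0.29 to -0.22), and the SM4 value was -0.056 without NC replicate 3 and -0.054 without SM4 replicate 2. CCNE2, cyclin E2, was called in neither, at -0.10 in SM2 and 0.095 in SM4, and shares 37% of its exon bases with INTS8 on the other strand. INTS8 stood at 78.7 CPM against 10.6 CPM for CCNE2. It was lower in SM2 (-0.325, adjusted p = 6.88e-05) and in SM4 (-0.205, adjusted p = 0.00491). Whether INTS8 reads entered the CCNE2 counts was not tested.

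Both CDK inhibitors were higher in SM4, and CDKN1B had the highest log2 fold change of the 48 genes in SM2. CDKN1B (p27, ENSG00000111276, chr12:12685498-12722369) stood at 49.1, 49.4 and 48.5 CPM in NC, at 61.0, 61.8 and 62.0 CPM in SM2, and at 57.4, 59.0 and 54.6 CPM in SM4. The 3 labels did not overlap, with SM2 highest and NC lowest. CDKN1B rose by 0.33 ± 0.048 (SE) on the log2 scale in SM2 (adjusted p = 3.42e-05), or 25.7%, and by 0.22 ± 0.048 in SM4 (adjusted p = 0.00211). CDKN1A (p21, ENSG00000124762, chr6:36676460-36687337) stood at 23.9, 23.4 and 24.4 CPM in NC, at 25.5, 24.6 and 27.98 CPM in SM2, and at 28.2, 28.9 and 28.5 CPM in SM4. Every SM2 library was above NC, and every SM4 library above SM2. CDKN1A rose in SM4 by 0.26 ± 0.061 (adjusted p = 0.00418), and its 0.12 ± 0.062 in SM2 was not called (adjusted p = 0.168).

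**Figure D4:**
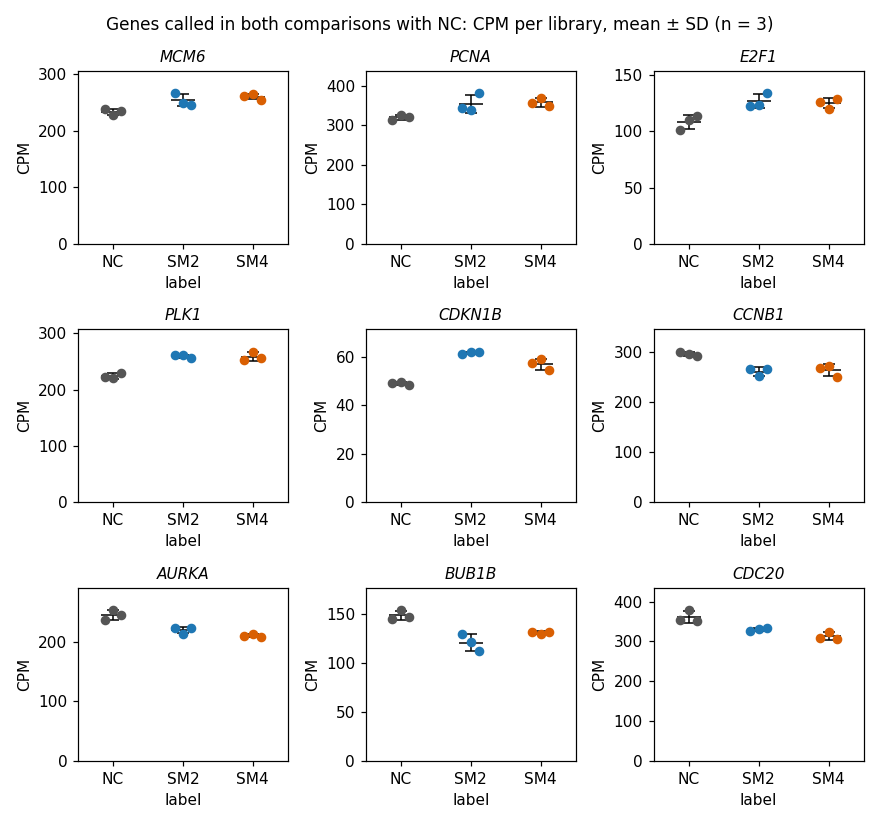
CPM in each library for the 9 genes called in both comparisons with NC (y axis, from 0; x axis, label). Points are libraries, horizontal bars are means and error bars are SD over 3 libraries. MCM6, PCNA, E2F1, PLK1 and CDKN1B lie above NC in all 6 SM2 and SM4 libraries, and CCNB1, AURKA, BUB1B and CDC20 lie below it.

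Cyclin B1 was lower in both labels and its kinase CDK1 in SM2. CCNB1 (ENSG00000134057, chr5:69167135-69178245) stood at 300, 294 and 291 CPM in NC, at 265, 251 and 265 CPM in SM2, and at 267, 272 and 250 CPM in SM4. All SM2 and SM4 libraries were below NC. CCNB1 fell by 0.18 ± 0.043 (SE) on the log2 scale in SM2 (adjusted p = 0.00427) and by 0.16 ± 0.043 in SM4 (adjusted p = 0.00876), and the SM4 call was lost without NC replicate 1 or SM4 replicate 3 (-0.15 to -0.13). CDK1 (ENSG00000170312, chr10:60778331-60794852) stood at 157, 157 and 148 CPM in NC, at 141, 131 and 142 CPM in SM2, and at 151, 148 and 147 CPM in SM4. SM2 lay below NC and SM4 overlapped it. CDK1 fell in SM2 by 0.16 ± 0.045 (adjusted p = 0.0134), a call lost without NC replicate 1, NC replicate 2 or SM2 replicate 2 (-0.15 to -0.12), and had -0.046 ± 0.045 in SM4 (adjusted p = 0.538). CCNA2 (cyclin A2, of S and G2 phase) and CCNB2 (cyclin B2) were called in neither and lay between -0.073 and 0.088.

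The mitotic kinases went in opposite directions. PLK1 (polo-like kinase, ENSG00000166851, chr16:23677656-23690367) stood at 222, 220 and 230 CPM in NC, at 261, 261 and 256 CPM in SM2, and at 253, 267 and 256 CPM in SM4. It was above NC in all 6 libraries and was the 1 mitosis gene called higher. The log2 fold change was 0.21 ± 0.041 (SE) in SM2 (adjusted p = 0.000635) and 0.21 ± 0.041 in SM4 (adjusted p = 0.000767). Exons of PLK1 share 11.6% of their bases with an antisense lncRNA. AURKA (Aurora A, a kinase of the centrosome and spindle, ENSG00000087586, chr20:56369389-56392337) stood at 237, 252 and 244 CPM in NC, at 222, 213 and 222 CPM in SM2, and at 209, 213 and 208 CPM in SM4. Every SM2 and SM4 library was below NC. AURKA fell by 0.16 ± 0.041 in SM2 (adjusted p = 0.00773) and by 0.22 ± 0.041 in SM4 (adjusted p = 0.000518), and the SM2 call was lost without NC replicate 2 or SM2 replicate 2 (both -0.14). AURKB (Aurora B, of the chromosomal passenger complex) was called in neither, at 0.017 in SM2 and -0.0071 in SM4.

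All 4 spindle checkpoint genes had negative values in both comparisons, and 3 of them were called lower in SM2. BUB1B (BUBR1, part of the mitotic checkpoint complex, ENSG00000156970, chr15:40161023-40221123) stood at 146, 154 and 147 CPM in NC, at 130, 121 and 112 CPM in SM2, and at 132, 129 and 132 CPM in SM4. No SM2 or SM4 library reached the lowest NC library, and SM2 replicate 3 was the lowest of all. BUB1B fell by 0.30 ± 0.049 (SE) on the log2 scale in SM2 (adjusted p = 0.000138) and by 0.18 ± 0.049 in SM4 (adjusted p = 0.00975), and the SM4 call was lost without NC replicate 2, at -0.16. It shares 5.38% of its exon bases with PAK6 on the same strand. BUB1 and TTK (MPS1), the kinases that recruit the checkpoint to kinetochores, fell in SM2 by 0.16 (adjusted p = 0.0132) and 0.14 (adjusted p = 0.0448), and had -0.024 and -0.083 in SM4. The BUB1 call was lost without NC replicate 1 or NC replicate 2 (-0.15 to -0.14), and that of TTK without any one library other than NC replicate 3 and SM2 replicate 1 (-0.15 to -0.11). MAD2L1 (MAD2) was called in neither, at -0.14 in SM2 and -0.099 in SM4.

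Among the kinetochore, motor and spindle genes, CENPE and TPX2 were lower in SM2 and KIF20A and BIRC5 in SM4. CENPE (a kinetochore motor, ENSG00000138778, chr4:103105349-103198445) stood at 128, 127 and 120 CPM in NC, at 103, 107 and 100 CPM in SM2, and at 119, 112 and 114 CPM in SM4. The labels did not overlap, with SM2 lowest. CENPE fell in SM2 by 0.28 ± 0.046 (SE) on the log2 scale (adjusted p = 0.00017), and its -0.12 ± 0.046 in SM4 was not called (adjusted p = 0.0708). TPX2, an activator of Aurora A, fell in SM2 by 0.19 (adjusted p = 0.00166) and had -0.061 in SM4. KIF20A (a kinesin of cytokinesis, ENSG00000112984, chr5:138178719-138187723) stood at 167, 172 and 174 CPM in NC, at 168, 162 and 156 CPM in SM2, and at 145, 159 and 140 CPM in SM4. SM4 was below NC throughout and SM2 overlapped it. KIF20A fell in SM4 by 0.21 ± 0.048 (adjusted p = 0.0031) and had -0.082 ± 0.049 in SM2 (adjusted p = 0.258). BIRC5 (survivin, of the chromosomal passenger complex, ENSG00000089685, chr17:78214186-78225636) stood at 285, 291 and 275 CPM in NC, at 273, 263 and 289 CPM in SM2, and at 234, 239 and 231 CPM in SM4. All SM4 libraries were below all others, and SM2 overlapped NC. BIRC5 fell in SM4 by 0.27 ± 0.043 (adjusted p = 9.24e-05), the lowest value of the 48 genes there, and had -0.045 ± 0.043 in SM2 (adjusted p = 0.525). CENPF (a kinetochore protein) and KIF11 (the kinesin that separates spindle poles) were called in neither and lay between -0.11 and 0.037.

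CDC20, the activator of the anaphase-promoting complex, was lower in both labels. CDC20 (ENSG00000117399, chr1:43358981-43363203) stood at 354, 378 and 351 CPM in NC, at 327, 331 and 333 CPM in SM2, and at 310, 325 and 307 CPM in SM4. The 3 labels did not overlap, with NC highest and SM4 lowest. CDC20 fell by 0.13 ± 0.042 (SE) on the log2 scale in SM2 (adjusted p = 0.0315) and by 0.20 ± 0.042 in SM4 (adjusted p = 0.00123), and the SM2 call was lost without NC replicate 1, NC replicate 2, SM2 replicate 1, SM2 replicate 2 or SM4 replicate 1 (-0.14 to -0.095). UBE2C, a ubiquitin-conjugating enzyme of the same complex, was called in neither, at -0.068 in SM2 and -0.13 in SM4.

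The genes of mitotic chromosomes were lower in SM2 and near NC in SM4. MKI67 (Ki-67, the proliferation marker that coats mitotic chromosomes, ENSG00000148773, chr10:128096659-128126423) stood at 589, 580 and 533 CPM in NC, at 510, 542 and 428 CPM in SM2, and at 595, 545 and 565 CPM in SM4. SM2 replicate 3 was far below the others, and SM2 replicate 2 overlapped NC. MKI67 fell in SM2 by 0.20 ± 0.064 (SE) on the log2 scale (adjusted p = 0.0261) and had 0.0027 ± 0.064 in SM4 (adjusted p = 0.985). The SM2 call was lost without NC replicate 1, NC replicate 2 or SM2 replicate 3 (-0.19 to -0.11), with -0.11 without SM2 replicate 3. TOP2A, the topoisomerase that untangles sister chromatids, fell in SM2 by 0.13 (adjusted p = 0.0163) and had -0.011 in SM4, and its call was lost without NC replicate 1, NC replicate 2 or SM2 replicate 2 (-0.13 to -0.12).

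SM4 and SM2 were then compared directly, a test in which NC does not enter except through the shared estimate of the spread. Of the 48 genes 7 (14.6%) were called, 5 higher and 2 lower in SM4, against 12.8% of all genes tested (6.04% higher and 6.76% lower) and 19.9% of those with a mean of at least 10 CPM (9.62% higher and 10.3% lower). The SM4 libraries lay above all SM2 libraries for 11 genes and below them for 4, against 13.7% and 14.6% of all genes. The share called was near the background in this comparison. GINS4 was lower in SM4 than in SM2 by a log2 fold change of -0.27 ± 0.057 (SE; adjusted p = 0.00262), and BIRC5 by -0.23 ± 0.043 (adjusted p = 0.00113). These 2 calls were made under every alternative run. CCNE1 was higher in SM4 by 0.31 ± 0.10 (adjusted p = 0.049), MKI67 by 0.20 ± 0.064 (adjusted p = 0.0376), CENPE by 0.15 ± 0.046 (adjusted p = 0.0313), TPX2 by 0.13 ± 0.041 (adjusted p = 0.0412) and TOP2A by 0.12 ± 0.039 (adjusted p = 0.0427). Each of these 5 calls was lost without at least 3 single libraries, and those of MKI67, TPX2 and TOP2A were lost without SM2 replicate 3 (0.11, 0.11 and 0.095). For the genes called in 1 comparison with NC and not the other, a difference between SM2 and SM4 was shown for these 7 alone. The count was 8 without SM2 replicate 3, and 2 without SM4 replicate 1, 3 without SM4 replicate 3 or NC replicate 2, and 4 without NC replicate 1 or SM2 replicate 2.

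Other genes of the same pathways, which are not among the 48, are set against the 22.3% of all genes tested that were called in SM2 and the 21.2% in SM4. Among genes with a mean of at least 10 CPM the share was 32.4% in SM2 (15.1% higher and 17.3% lower). In SM4 it was 31.1% (14.1% higher and 17% lower). The shares called of the mitotic and replication lists below, both directions together, were under these totals. Of 82 other mitotic genes 23 were called lower and 0 higher in SM2 (28% called), with a median log2 fold change of -0.064 and 62 negative. All calls there were lower, and 28% lies above the 17.3% called lower among genes with a mean of at least 10 CPM. None was called higher, against 15.1% of those genes. In SM4 16 were lower and 4 higher (24.4%), with a median of -0.056, a share near that of all genes. The lowest called were CEP55, a protein of cell abscission, in SM2 (-0.40, adjusted p = 4.88e-06) and DEPDC1 in SM4 (-0.37, adjusted p = 1.41e-06), and the highest called in SM4 was SKA2, of a kinetochore complex (0.22, adjusted p = 0.00258). The 56 other replication genes were mixed, with 8 higher and 7 lower in SM2 (26.8% called, median -0.031) and 7 higher and 4 lower in SM4 (19.6%, median 0.013), shares near those of all genes. They ran from TIPIN, of the fork protection complex (-0.41), to LIG1, the replicative DNA ligase (0.24), in SM2, and from GMNN, the CDT1 inhibitor geminin (-0.35), to POLE, the catalytic subunit of DNA polymerase epsilon (0.23), in SM4.

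Of 26 other cyclins, CDKs and their regulators 23 were tested (CCNA1, CCND2 and CDKN2B were not). In SM2 3 were higher and 2 lower (21.7% called against 22.3% of all genes, median -0.028), and in SM4 3 were higher and 3 lower (26.1% against 21.2%, median 0.018). CDK6, the partner of D-type cyclins, was the lowest called in SM2 (-0.48, adjusted p = 5.8e-05) and CDKN2C, an inhibitor of CDK4 and CDK6, the highest (0.26, adjusted p = 0.00282). In SM4 SKP2, the F-box protein that marks CDKN1B for degradation, was the lowest called (-0.45, adjusted p = 3.36e-06) and CDKN2D, another inhibitor of CDK4 and CDK6, the highest (0.32, adjusted p = 0.00879). Of 19 RB, E2F and DREAM factors 1 was higher and 2 lower in SM2 (15.8% called, median -0.019), from the activator E2F3 (-0.37) to TFDP2, a dimer partner of E2F (0.52), and 2 were higher and 1 lower in SM4 (15.8%, median 0.0050), from MYBL1 (-0.25) to TFDP2 (0.38). Of 25 p53 target genes 24 were tested (SPATA18 was not), with 7 higher and 2 lower in SM2 (37.5% called against 22.3% of all genes, median 0.038) and 7 higher and 7 lower in SM4 (58.3% against 21.2%, median 0.064). Among genes with a mean of at least 10 CPM the shares called were 32.4% in SM2 and 31.1% in SM4. MDM2, the ubiquitin ligase that degrades p53, was the lowest called in both (-0.24 in SM2 and -0.26 in SM4), TP53INP1 the highest in SM2 (1.22, adjusted p = 4.59e-05) and GDF15, a secreted stress cytokine, the highest in SM4 (1.23, adjusted p = 3.16e-10).

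Levels within the set were compared per length, as the NC mean CPM per kilobase of exon. Exon length was the union of the exons of all GENCODE transcripts of a gene. PCNA was the highest at 228, followed by CDC20 at 179, TOP2A at 177, CCND1 at 149 and TPX2 at 146. POLA1 at 3.46 and CCNE2 at 2.42 were the lowest.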

How the data were processed

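RNA was measured in 9 OVCAR5 libraries, grouped by their titles into NC, SM2 and SM4. The authors deposited raw counts per gene, made by alignment with HISAT2 to GRCh38 (hg38) and counting with featureCounts of Subread, per the submitters' processing notes, which also name fastp. Versions, gene annotation and strand setting are not given in the sources used here, and the labels and methods differ on kit and read layout, so reads of overlapping antisense genes may not be told apart. Of 60649 identifiers 60463 matched GENCODE v44.

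In R 4.3.3, filterByExpr of edgeR 4.0.16 kept 19674 genes and removed 40975. All libraries entered 1 quasi-likelihood F test on group with TMM factors, with Benjamini-Hochberg adjustment across these 19674 genes and calls below 0.05. CPM values were TMM-normalized. At 1 CPM a gene had 44.1 to 63.7 counts. Counts without molecular identifiers do not tell copies of a molecule from separate molecules. Replicate pairs differed by more than counting error, at 4.16 to 16.1 per degree of freedom in the chi-square test. The script was tested on simulated data.

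The 48 genes, the other pathway lists and the rules were chosen with earlier results of these data known. Every called gene of the 48 was named, with CCND1, CCNE1, E2F1, CDKN1A, CDKN1B, CDK1, MKI67 and PCNA in every comparison with NC. Values per library were given for genes called in both comparisons with NC, for the 3 highest and 3 lowest called in each comparison, and for those 8 genes. Of the other lists the highest and lowest called gene were named. For genes with several RefSeq promoter windows, the window whose start was nearest the GENCODE start was used.

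Alternatives were DESeq2 1.42.0, its size factors or upper-quartile scaling in edgeR, no filter, a mean of at least 1 CPM, the 6 compared libraries alone, a replicate block, removal of a trend with gene length, a threshold of 0.01, and leaving out each library.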

Additional observations from a re-analysis of the deposited data

Results flagged for a closer look

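For 7 genes the change against NC differed between SM2 and SM4 by the test of SM4 against SM2. As log2 fold changes of SM4 against SM2, GINS4 was at -0.2716 and BIRC5 at -0.2267, lower in all 3 SM4 libraries than in any SM2 library. CCNE1 was at 0.3139, with libraries that overlapped. CENPE (0.1548), TPX2 (0.129), TOP2A (0.1221) and MKI67 (0.2047) were higher in every SM4 library than in any SM2 library. SM2 replicate 3, which stood apart from the other SM2 libraries, was the lowest of the 9 libraries in CENPE, TPX2, TOP2A and MKI67, and the part of that library in the differences was not tested beyond leaving it out.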

How the results depend on the processing

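Of 45 calls on named genes of the set, 20 were made under all 17 alternatives and 25 were lost under at least 1. With the 6 compared libraries alone, SM2 against NC lost CDC6, MCM6, GINS4, CCNE1, CDC20, TTK and MKI67. Without a filter it lost CDC6, MCM6, MCM7, CDC20 and TTK, SM4 against NC lost CDT1, and SM4 against SM2 lost TPX2 and TOP2A. In SM2 against NC, DESeq2 size factors lost GINS4 and MCM6, and upper-quartile scaling lost CCNE1 and TTK. Removing the length trend lost MCM6 there and CENPE in SM4 against SM2. With the replicate numbers as a block, the set held 23 calls for SM2 against NC, 19 for SM4 against NC and 9 for SM4 against SM2. Of all genes 23.85%, 22.79% and 14.31% were then called. The numbers share no labelled origin and same-numbered libraries did not deviate together (correlations of -0.053 to 0.0453). At a threshold of 0.01 the calls fell to 10 in SM2 against NC and 2 in SM4 against SM2, where 14.1% and 7.08% of all genes were called. With the 6 compared libraries alone they fell to 2 in SM4 against SM2, against 10.95% of all genes (the cause was not tested). Leaving out 1 library gave 9 to 22 calls in SM2 against NC, 11 to 22 in SM4 against NC and 2 to 8 in SM4 against SM2. The shares of all genes called were then 15.9% to 22.9%, 14.5% to 25.9% and 7.82% to 13.6%.

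The median of the mitosis genes kept its sign under every alternative. That of the replication genes was 0.025 in SM4 against NC with upper-quartile scaling, 0.0054 in SM2 against NC and 0.035 in SM4 against SM2 with the length trend removed, and -0.0054 to 0.037 in SM2 against NC with 1 library left out (the cause was not tested). Leaving out 1 library gave -0.0043 to 0.018 in SM4 against NC and -0.0040 to 0.029 in SM4 against SM2. No sign can be given to the replication median in any of the 3 comparisons. The uncalled values of SM4 against NC that changed sign were near 0. MKI67 was at -0.0021 with 6 libraries, -0.0094 with the length trend removed and -0.042 to 0.032 with 1 library left out, and CCNE1 at -0.056 to 0.10. With 3 libraries a label, no gene of the set with a change under 0.1 on the log2 scale was called in the reported test.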
